A study of Mus musculus with 6 samples.

Results

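The Hox genes are homeobox transcription factor genes that lie in 4 clusters, Hoxa to Hoxd, and give cells a record of where along the head-to-tail axis they arose. They were taken here as the protein-coding genes whose GENCODE M21 symbol is Hox, a cluster letter and a number. This gave 39 of the 46603 gene identifiers counted: 11 in Hoxa, 10 in Hoxb, 9 in Hoxc and 9 in Hoxd. Genes with the same number in different clusters are paralogs, so the 39 genes fall into 13 paralog groups. Low numbers lie at the 3′ end of a cluster and are active from more anterior levels of the embryo, and high numbers lie at the 5′ end and are restricted to posterior levels. Adult stromal cells keep much of this pattern, and different fat depots carry different Hox profiles, so the range of paralogs with transcripts is a positional mark of the tissue that was dissected. Within the nucleus Hox proteins bind DNA with TALE partners (the Pbx, Meis and Pknox families), and silent Hox genes are held under Polycomb repression, which Trithorax and MLL proteins oppose.

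RNA was sequenced from abdominal visceral fat of C57/Bl6 mice aged 18 months, without treatment, in 3 wild-type (WT) libraries and 3 libraries from mice without nuclear myosin 1 (NM1 KO). The labels name neither the sex of the mice nor which abdominal depot was sampled, and how the knockout was made was not found in the labels. They also do not say that replicates came from separate animals, so p-values measure the spread between these libraries. The comparison asks whether the Hox profile of the fat differs between the genotypes.

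Total counts lay between 24677758 and 33537818 per library, and 8907 to 11853 counts (0.0285% to 0.0428%) fell on Hox genes. A count of 3, used as the detection floor, equalled 0.0916 to 0.120 CPM (counts scaled to library size) and covers counting error only. Nuclear myosin 1 is an isoform of Myo1c, and gene-level counts cover all Myo1c isoforms, so they do not check the knockout. Values of single libraries are given throughout in the order of replicates 1, 2 and 3. Myo1c stood at 801, 759 and 801 CPM in WT and at 452, 697 and 551 CPM in NM1 KO. Every NM1 KO value lay below every WT value, but the gene did not pass the test (log2 fold change -0.47 ± 0.17 SE, edgeR adjusted p = 0.151). DESeq2 gave an adjusted p of 0.0513 and limma-voom called it (adjusted p = 0.0382). As to the tissue label, the 7 adipocyte genes listed summed to 20539 to 24698 CPM over the 6 libraries. Of organs next to abdominal fat, pancreas markers summed to at most 0.0644 CPM with Pnlip and Cela3b at 0 counts, kidney markers to at most 0.592 CPM with Umod and Nphs1 at 0, and intestine markers to at most 0.777 CPM with Cdx2 and Fabp2 at 0. Epididymis markers summed to at most 0.418 CPM with Lcn5, Crisp1 and Defb48 at 0 counts. Testis markers summed to at most 3.07 CPM with Prm1, Prm2 and Tnp1 at 0 and Insl3 called lower in NM1 KO. Skeletal muscle markers summed to 20.2 to 129 CPM, most of it from Acta1 (19.5 to 128 CPM). Ckm reached at most 0.946 CPM, Myh4 1.22 CPM and Tnnt3 3.14 CPM.

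The sequences that mark the 3′ and 5′ parts of the clusters are shown first. MicroRNA genes sit between Hox genes at matching places. Mir196a-1 lies between Hoxb13 and Hoxb9 at chr11:96265187-96265208 (GRCm38, as all coordinates here), Mir196a-2 between Hoxc10 and Hoxc9 at chr15:102973365-102973386, and Mir196b within the annotated Hoxa9 gene, next to Hoxa10, at chr6:52230129-52230150. These mature strands, from RefSeq (GRCm38.p6), share a seed, given in capitals as bases 2 to 8 from the 5′ end, which pairs with target transcripts. Mir10a lies between Hoxb5 and Hoxb4 at chr11:96317186-96317208 and Mir10b within the annotated Hoxd3 and Hoxd4 genes at chr2:74726074-74726096, and their mature strands share a different seed.
miR-196a-5p: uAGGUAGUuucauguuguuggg
miR-196b-5p: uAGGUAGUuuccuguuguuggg
miR-10a-5p: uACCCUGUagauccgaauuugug
miR-10b-5p: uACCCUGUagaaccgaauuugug

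The Mir196 genes stand close to where the Hox signal of this fat ended. Their precursors had 0 counts over all 6 libraries, the Mir10a precursor had 6 counts and that of Mir10b 9. Mature microRNAs were not measured by these gene-level counts. The letters ACTACCT, the complement of the miR-196 seed in DNA letters, were searched on the sense strand of 3′ untranslated regions. They occurred in 9 of 39 Hox genes and in 6.10% of the 20728 genes with an annotated region (median lengths 966 and 965 bases). The complement of the miR-10 seed, ACAGGGT, occurred in 4 of 39 Hox genes and 12.5% of all. A match of letters is a description and not a measured target. The matches below belong to Hoxc8, which led the expressed genes, to Hoxa7 and Hoxb7, the highest-numbered paralog expressed in Hoxa and its Hoxb counterpart, and to Hoxa9, the first Hoxa gene beyond the expressed range. Hoxa7 had 4 matches, of which the one with the most paired bases is shown. Capitals mark the letters that pair with the seed.
Hoxc8 first match: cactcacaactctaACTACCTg
Hoxc8 second match: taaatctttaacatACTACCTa
Hoxa7: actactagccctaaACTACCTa
Hoxb7: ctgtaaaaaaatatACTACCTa
Hoxa9: caaaaggaaagaaaACTACCTt

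The 5′ ends of the clusters had next to no transcripts, while expression reached the 3′ end in Hoxa and Hoxc but not in Hoxb and Hoxd. Counting a gene as expressed at 1 CPM or more in at least 3 libraries, 23 of 39 Hox genes were expressed. In Hoxa (chr6:52155590-52260880) 7 of 11 genes were expressed, paralogs 1 to 7. In Hoxb (chr11:96194316-96368256) 8 of 10 genes were expressed, paralogs 2 to 9, while Hoxb1 at the 3′ end had 0 counts. In Hoxc (chr15:102921103-103036852), which begins at paralog 4, 5 of 9 genes were expressed, with highest paralog 9. In Hoxd (chr2:74668310-74765142) 3 of 9 genes were expressed, Hoxd4, Hoxd8 and Hoxd9, and the 3′ genes Hoxd1 and Hoxd3 were not. Of the exonic bases of Hoxd3, 62.8% also lie in exons of other genes, Hoxd4 among them. Reads there cannot be assigned to one gene, so the level of Hoxd3 is uncertain. The 5′ limit therefore fell after paralog 9 in Hoxb, Hoxc and Hoxd and after paralog 7 in Hoxa. Asking for 1 CPM in all 6 libraries dropped Hoxa2, Hoxb2, Hoxb3 and Hoxb9, which left 5 Hoxb genes, paralogs 4 to 8.

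**Figure D1:**
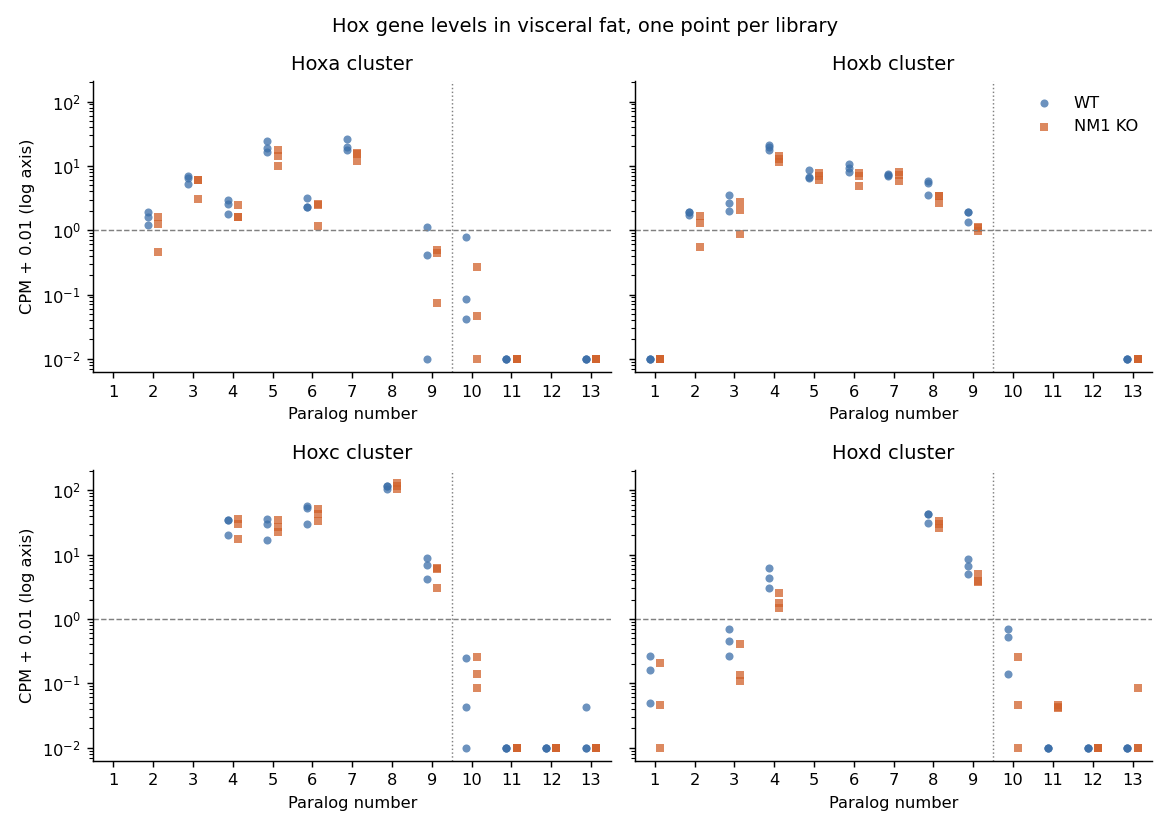
Level of the Hox genes reported here in each library, as CPM plus 0.01 on a log axis, against paralog number, with a panel per cluster (blue circles WT, orange squares NM1 KO). The dashed line marks 1 CPM and the dotted line the border between paralogs 9 and 10, beyond which no gene of any cluster reached 1 CPM in any library.

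Beyond paralog 9 the signal was close to nothing. The 12 genes of groups 10 to 13 had 0 expressed members. Group 10 held 96 counts over all libraries, group 11 held 3, group 12 held 0 and group 13 held 3, beside 2243 counts in group 9 and 26537 in group 8. Across the whole set, 7 genes had 0 counts in every library (Hoxa11, Hoxa13, Hoxb1, Hoxb13, Hoxc11, Hoxc12 and Hoxd12), and another 7, including Hoxa10, Hoxc10, Hoxd1 and Hoxd10, had some counts but too few to be tested.

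The border was read in each library from the last expressed gene of a cluster and its 5′ neighbour. Hoxa7, whose protein patterns thoracic levels, was counted at 19.7, 17.6 and 26.1 CPM in WT and at 11.7, 16.1 and 15.4 CPM in NM1 KO. Its neighbour Hoxa9 had 0.407, 0 and 1.12 CPM in WT and 0.0644, 0.427 and 0.474 CPM in NM1 KO, so only WT replicate 3 passed 1 CPM. Both genotypes thus show the step between these Hoxa neighbours in every library.

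In Hoxb the last expressed gene was Hoxb9, at 1.89, 1.89 and 1.32 CPM in WT and 0.965, 1.07 and 1.09 CPM in NM1 KO. The WT libraries all lay above the NM1 KO libraries for this low gene. Hoxb13, the next gene in the cluster and a mark of the tail end of the body, had 0 counts in all 6 libraries, which allows at most the floor given above.

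Hoxc9 was counted at 6.91, 4.22 and 8.78 CPM in WT and at 3.03, 5.89 and 6.19 CPM in NM1 KO, with overlapping groups. Hoxc10, known from lower-body fat and hindlimb, had 0, 0.0320 and 0.240 CPM in WT and 0.129, 0.244 and 0.0729 CPM in NM1 KO. Of its exonic bases 8.70% also lie in exons of Hoxc5, and reads there cannot be assigned to one of them.

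Hoxd9 had 8.54, 4.92 and 6.69 CPM in WT and 3.80, 5.07 and 3.86 CPM in NM1 KO. Hoxd10 had 0.518, 0.128 and 0.681 CPM in WT and 0, 0.244 and 0.0364 CPM in NM1 KO. Hoxd10 was below 1 CPM in each library.

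The Hoxd border is shown at the level of sequence, since Hoxd9 and Hoxd10 are adjacent and lie on opposite sides of it. The runs are the 250 bases upstream of each RefSeq start (GRCm38.p6, plus strand), with CG dinucleotides in capitals, since Polycomb-bound Hox promoters are rich in them. The stretch upstream of Hoxd9 is chr2:74697513-74697762, and that upstream of Hoxd10 is chr2:74691641-74691890.
Hoxd9 upstream: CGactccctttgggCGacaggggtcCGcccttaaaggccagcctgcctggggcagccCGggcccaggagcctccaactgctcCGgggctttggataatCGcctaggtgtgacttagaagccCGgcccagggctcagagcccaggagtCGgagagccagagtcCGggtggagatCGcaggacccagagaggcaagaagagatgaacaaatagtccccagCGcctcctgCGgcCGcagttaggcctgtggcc
Hoxd10 upstream: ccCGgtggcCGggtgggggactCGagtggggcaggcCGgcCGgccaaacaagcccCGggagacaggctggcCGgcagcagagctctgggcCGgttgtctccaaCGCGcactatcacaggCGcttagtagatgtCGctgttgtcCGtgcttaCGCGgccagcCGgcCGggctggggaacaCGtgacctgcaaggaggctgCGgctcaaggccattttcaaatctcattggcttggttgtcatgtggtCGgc

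The expressed Hoxd9 had 13 CG dinucleotides in this window, a number reached by 31.5% of 32851 RefSeq promoters, and the barely detected Hoxd10 had 20, reached by 17.9%. Of the Hox genes, 22 of 39 had a promoter entry. The median number was 12 for the 11 expressed genes and 13 for the 13 promoters of 11 genes that were not expressed, beside 6 over all promoters. Both medians lay above that of all promoters.

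To compare levels between genes, counts were divided by exonic length and scaled to the same total in each library (transcript units, TPM). Summed TPM over the 6 libraries (mean ± SD, n = 6) was 3.79 ± 1.34 in paralog group 2 and 5.00 ± 1.55 in group 3. It stood at 63.8 ± 13.1 in group 4, 65.9 ± 13.4 in group 5 and 81.3 ± 20.1 in group 6, neighbours within each other's spread. Group 7 was lower at 34.5 ± 6.11, and group 8 was highest at 175 ± 15.9. From there the level dropped to 17.9 ± 5.38 in group 9 and 0.861 ± 0.771 in group 10. These sums cover unequal numbers of genes: 2 in groups 2 and 7, 3 in groups 3, 5, 6, 8 and 10, and 4 in groups 4 and 9. Of Hoxb2, Hoxb3, Hoxd3 and Hoxd4, 27.3%, 52.9%, 62.8% and 52.3% of exonic bases also lie in exons of other genes. Reads there cannot be assigned to one gene, so the sums of groups 2, 3 and 4 are less certain.

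Each cluster had its own peak. Hoxc8, a regulator of thoracic patterning that is also known as a repressor of the brown fat programme, was the highest Hox gene, with 130 ± 12.6 TPM (SD, n = 6). Hoxc6 followed at 59.8 ± 15.4 TPM, outside the spread of Hoxc8. The next genes, Hoxd8 at 40.1 ± 8.38, Hoxc4 at 35.7 ± 10.1, Hoxa5 at 28.9 ± 7.95 and Hoxc5 at 28.9 ± 7.76 TPM, did not differ beyond their spread. The highest Hoxb gene was Hoxb4 at 20.2 ± 4.58 TPM, next to Hoxa7 at 19.8 ± 5.22 TPM. The peak thus lay at paralog 5 in Hoxa, 4 in Hoxb and 8 in Hoxc and Hoxd. Ranks were kept closely between libraries: Spearman's rho of CPM over the 23 expressed genes lay between 0.951 and 0.969 for library pairs of the same genotype and between 0.945 and 0.987 for pairs of different genotype, a description over genes that share each library's depth.

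Between the genotypes, 0 of the 25 Hox genes with enough counts to be tested changed (edgeR quasi-likelihood test, adjusted p under 0.05), beside 4.25% of the 15828 genes tested (1.47% lower and 2.79% higher in NM1 KO). At an unadjusted p under 0.05 there were 6, all lower in NM1 KO (Hoxa7, Hoxb4, Hoxb8, Hoxd4, Hoxd8 and Hoxd9), beside 23.7% of all genes in either direction and 10.8% that were lower. DESeq2 called 2 Hox genes lower, Hoxb4 and Hoxd4, beside 14.1% of all genes, and limma-voom called 1, Hoxb4, beside 10.4%. Without NM1 KO replicate 2, edgeR called 1, Hoxb4, beside 10.2%.

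The fitted log2 fold change of NM1 KO over WT was negative in 23 of the 25 tested genes, beside 50.3% of all genes. Their median was -0.50, beside -0.0021 over all tested genes. The libraries differed in this: relative to the WT mean, the median Hox gene stood at -0.72 (log2 of CPM plus 0.5) in NM1 KO replicate 1, at -0.10 and -0.15 in NM1 KO replicates 2 and 3, and at 0.16, -0.23 and 0.059 in WT. Without NM1 KO replicate 1 the median was -0.21. The ranges of the 2 genotypes did not overlap for 7 of the 25 genes, all lower in NM1 KO (Hoxa7, Hoxb2, Hoxb4, Hoxb6, Hoxb8, Hoxb9 and Hoxd4), beside 29.9% of all genes in either direction and 15% that were lower.

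**Figure D2:**
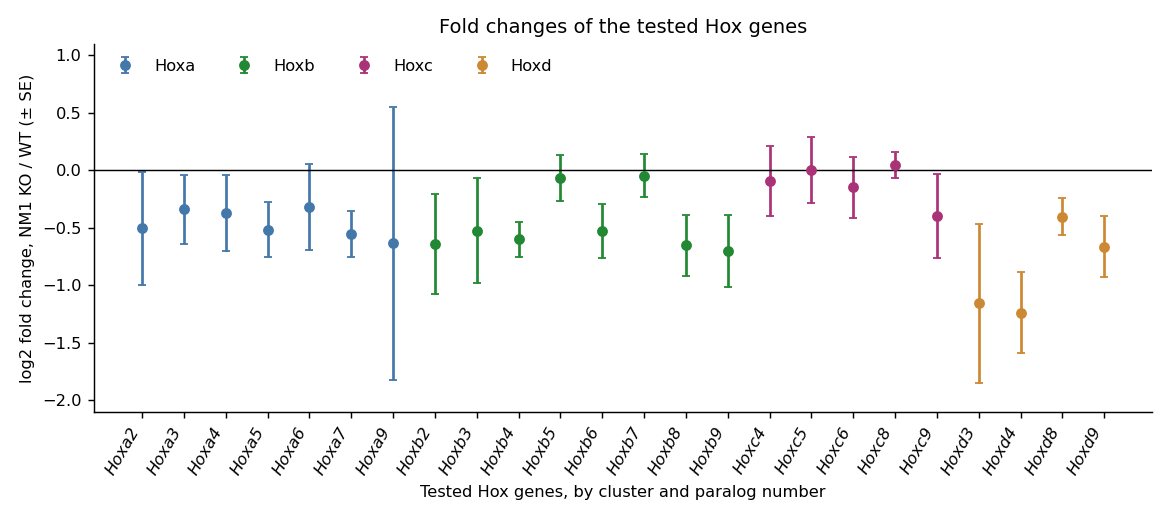
Log2 fold change of NM1 KO over WT (y axis, points) with its standard error (bars) for the tested Hox genes reported here, ordered by cluster and paralog number. Values lie between -1.24 for Hoxd4 and 0.051 for Hoxc8, those of Hoxa, Hoxb and Hoxd are all below 0 in this fit (Hoxb5 and Hoxb7 turned sign with the GC and length correction), and no gene passed the adjusted test in edgeR.

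The libraries also differed in base composition and in cell type markers. Over protein-coding genes, Spearman's rho between GC content and a gene's level relative to the mean of all libraries was -0.43 and -0.46 in NM1 KO replicates 1 and 3 and between 0.14 and 0.35 in the other 4 libraries. Tested Hox genes had a median GC content of 53.5%, beside 49.9% for 13946 tested protein-coding genes, and with GC content and length taken out of the fit their median log2 fold change was -0.38. In bulk tissue, fewer cells of a type and less RNA per cell cannot be told apart. Over all tested genes, edgeR called 1.47% lower and 2.79% higher in NM1 KO, and the counts of called markers stand beside these shares. Endothelial markers, 4 of 6 called lower, summed to 630 to 839 CPM in WT and 241 to 385 CPM in NM1 KO. Markers of mesothelium, the lining of visceral fat, 1 of 5 called lower, summed to 647 to 994 and 465 to 698 CPM, and macrophage markers, 3 of 5 called higher, to 1549 to 2192 and 3577 to 4695 CPM. Smooth muscle markers, 1 of 4 called lower, summed to 391 to 616 and 193 to 385 CPM. B cell markers, 0 of 3 called, summed to 178 CPM in NM1 KO replicate 1 and to 17.2 to 72.1 CPM in the other libraries. None of the markers in these 5 lists was at 0 in all libraries. Progenitor markers, the stromal cells in which Hox genes are best known, had 1 of 7 called higher and summed to 2512 to 3559 CPM in WT and 3125 to 3249 CPM in NM1 KO. Dcn (1115 to 2197 CPM) was the largest part of this sum. Log2 fold changes were 0.85 for Pdgfra, the gene called, and 0.31 for Col15a1. They were -0.018 for Dcn, -0.18 for Dpp4, -0.43 for Pi16, -0.47 for Cd34 and -0.54 for Ly6a. The part of each in the Hox values was not tested.

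The 4 clusters are given one by one. In Hoxa, all 8 tested genes had a negative log2 fold change, with median -0.44, which was -0.12 without NM1 KO replicate 1. Summed over the cluster, counts were 54.1, 47.6 and 67.1 CPM in WT and 29.5, 44.3 and 47.2 CPM in NM1 KO. NM1 KO replicate 1 was the lowest library, and the highest NM1 KO library lay just under the lowest WT library. The means were 56.3 ± 9.92 and 40.3 ± 9.47 CPM (SD, n = 3 each; exact two-sided permutation p = 0.1, the smallest that 3 against 3 can give, and 0.2 adjusted over the 4 clusters).

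Hoxa5, needed for lung and cervico-thoracic development and the highest Hoxa gene, had 18.7, 16.6 and 24.3 CPM in WT and 10.1, 14.01 and 17.6 CPM in NM1 KO. The groups overlapped, and the log2 fold change of -0.52 ± 0.24 did not pass (edgeR adjusted p = 0.245). For Hoxa7, whose library values are given above, it was -0.55 ± 0.20 (edgeR adjusted p = 0.154), and 20.4% of its exonic bases also lie in the noncoding gene Hoxaas3.

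In Hoxb, all 8 tested genes had a negative log2 fold change, with median -0.56, and 6 of 8 with the GC and length correction. The median was -0.31 without NM1 KO replicate 1. The cluster summed to 56.8, 53.8 and 52.8 CPM in WT and to 34.0, 45.9 and 41.6 CPM in NM1 KO. WT libraries were close together and all above the NM1 KO libraries. Means were 54.5 ± 2.09 and 40.5 ± 6.02 CPM (exact two-sided permutation p = 0.1, adjusted 0.2). Hoxb4 (chr11:96318267-96321638), best known from blood stem cells, was counted at 17.5, 21.3 and 19.8 CPM in WT and at 11.4, 14.5 and 12.9 CPM in NM1 KO. The lowest WT value lay above the highest NM1 KO value, and the log2 fold change was -0.60 ± 0.15 (edgeR adjusted p = 0.0707). It is the Hox gene that DESeq2 and limma-voom both called, and its log2 fold change lay between -0.69 and -0.50 when any 1 library was left out. With the GC and length correction the log2 fold change of Hoxb4 was smaller, -0.44 (edgeR adjusted p = 0.107).

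Other Hoxb genes had smaller or noisier differences. Hoxb9, given above, had a log2 fold change of -0.70 ± 0.31 (edgeR adjusted p = 0.226) at about 1 to 2 CPM. Hoxb7 had 7.14, 6.90 and 7.49 CPM in WT and 5.76, 7.20 and 7.91 CPM in NM1 KO (-0.045 ± 0.19). Hoxb5, at -0.066 ± 0.20, likewise had overlapping groups. Of Hoxb2 and Hoxb3, 27.3% and 52.9% of exonic bases lie in Hoxb3os as well, and since the strand setting of the counting is not given, reads there could come from either gene.

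In Hoxc the genotypes overlapped. The cluster summed to 252, 177 and 242 CPM in WT and to 192, 231 and 236 CPM in NM1 KO. Here WT replicate 2 was the lowest of all libraries. Means were 224 ± 41.1 and 220 ± 24.2 CPM (exact two-sided permutation p = 0.8), and the sign of the difference turned when WT replicate 1, WT replicate 3 or NM1 KO replicate 1 was left out (10.6, 5.24 and 10.04 CPM higher in NM1 KO). The median log2 fold change over 5 tested genes was -0.090, and it lay between -0.30 (without WT replicate 2) and 0.074 (without NM1 KO replicate 1) when any 1 library was left out.

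Hoxc8 (chr15:102990607-102994111) had 118, 105 and 115 CPM in WT and 116, 105 and 130 CPM in NM1 KO. The 2 groups nearly coincided, with a log2 fold change of 0.051 ± 0.11 (edgeR adjusted p = 0.821), whose sign turned with the correction for GC content and length (-0.064). At 45.3%, Hoxc8 had the lowest GC content of the tested Hox genes. Hoxc5 had 35.8, 17.0 and 30.2 CPM in WT and 22.2, 33.8 and 26.999 CPM in NM1 KO, a log2 fold change of 0.0026 ± 0.28 whose sign turned in several scalings. The low library was WT replicate 2 for Hoxc5, Hoxc4 and Hoxc6 alike among the WT libraries, and NM1 KO replicate 1 among the NM1 KO libraries. Hoxc9, given above, had -0.40 ± 0.37 (edgeR adjusted p = 0.555).

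In Hoxd, all 4 tested genes had a negative log2 fold change, with median -0.91. When any 1 library was left out, the median lay between -1.47 (without NM1 KO replicate 3) and -0.70 (without WT replicate 1). The first of these is over 5 tested genes, as is the -1.45 without WT replicate 2, and the second is over 4. The cluster summed to 59.0, 39.8 and 54.7 CPM in WT and to 31.2, 40.3 and 36.7 CPM in NM1 KO. WT replicate 2 lay within the NM1 KO range. Means were 51.2 ± 10.1 and 36.1 ± 4.58 CPM (exact two-sided permutation p = 0.2, adjusted 0.267).

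Hoxd4, which acts in hindbrain and cervical patterning, had the lowest log2 fold change of the expressed Hox genes, -1.24 ± 0.35 (edgeR adjusted p = 0.0921). Its values were 6.06, 3.04 and 4.33 CPM in WT and 1.48, 1.74 and 2.48 CPM in NM1 KO, without overlap. Of its exonic bases, 52.3% also lie in Hoxd3, Gm28230 or the noncoding gene Hoxd3os1, and reads there cannot be assigned to one gene. Hoxd3 had the next lowest value of the tested genes, -1.16 ± 0.69 (edgeR adjusted p = 0.354), at under 1 CPM in each library. Hoxd8 (chr2:74704615-74707933), the highest Hoxd gene, had 43.3, 31.2 and 42.3 CPM in WT and 25.6, 33.1 and 29.7 CPM in NM1 KO. WT replicate 2 again fell among the NM1 KO libraries, and the log2 fold change was -0.40 ± 0.17 (edgeR adjusted p = 0.197). For Hoxd9, given above, it was -0.66 ± 0.26 (edgeR adjusted p = 0.188).

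**Figure D3:**
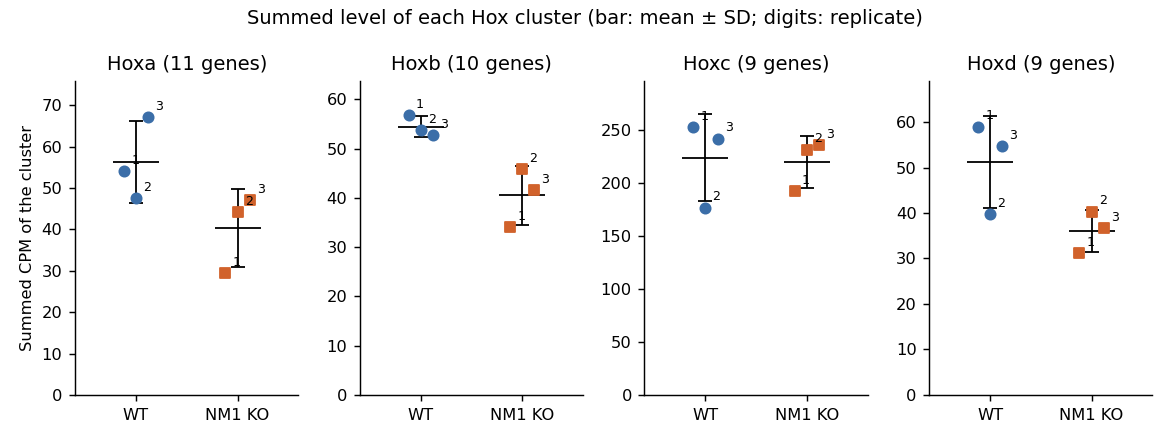
Summed CPM of each Hox cluster (y axes start at 0 and differ between panels) in each WT (blue circles) and NM1 KO (orange squares) library, labelled by replicate, with mean and SD as bars. In Hoxa and Hoxb all 3 NM1 KO libraries lie below all WT libraries, in Hoxd WT replicate 2 lies within the NM1 KO range, and in Hoxc the groups overlap around 224 and 220 CPM.

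As the Hoxc means lay closer together than those of the other clusters, the make-up of the Hox counts was compared. This share was chosen after the values were seen. Hoxc genes took 59.8%, 55.5% and 58.1% of Hox counts in WT and 66.9%, 63.9% and 65.3% in NM1 KO. The groups did not overlap, with means of 57.8% ± 2.12 and 65.4% ± 1.51 (SD, n = 3; exact two-sided permutation p = 0.1, the smallest possible). With Hoxc8 taken out the means were 39.9% ± 5.53 and 46.5% ± 2.41 (exact p = 0.1), and per kilobase of exonic length they were 54.7% ± 2.43 and 62.2% ± 1.47 (exact p = 0.1). The difference of 7.60 percentage points lay between 6.48 and 8.59 when any 1 library was left out. A share rises when the other clusters fall, and it does not show a higher Hoxc level.

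By position along the clusters, the share of Hox counts in paralog groups 9 to 13 was 4.34%, 3.54% and 4.71% in WT and 2.89%, 3.59% and 3.29% in NM1 KO. WT replicate 2 overlapped the NM1 KO libraries. Means were 4.20% ± 0.596 and 3.25% ± 0.351 (exact two-sided permutation p = 0.2). Groups 1 to 3 took 3.80% ± 0.138 and 3.19% ± 0.863 (exact p = 0.3), and groups 4 to 8 took 92.0% ± 0.465 and 93.6% ± 1.21 (exact p = 0.1). Groups 10 to 13 alone took 0.205% ± 0.176 in WT and 0.120% ± 0.0428 in NM1 KO (exact p = 0.9). Over the 25 tested genes, Spearman's rho between log2 fold change and paralog number was -0.10, a description over genes that share the same 6 libraries, and with GC content it was -0.40.

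**Figure D4:**
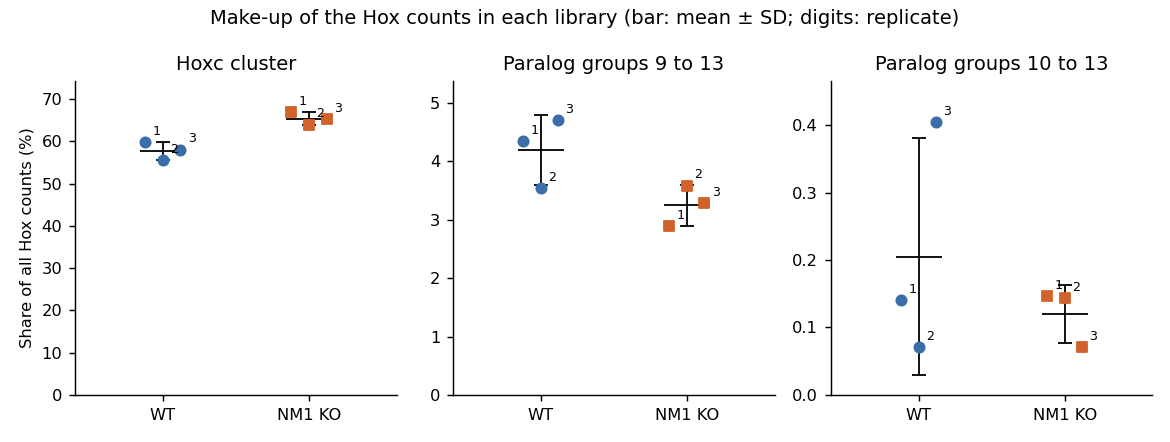
Share of all Hox counts, in percent, taken by the Hoxc cluster, by paralog groups 9 to 13 and by groups 10 to 13 in each library (blue circles WT, orange squares NM1 KO, labelled by replicate, mean and SD as bars, axes from 0). The Hoxc share is 55.5% to 59.8% in WT and 63.9% to 66.9% in NM1 KO, the shares of groups 9 to 13 overlap, and groups 10 to 13 stay below 0.41% in every library.

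Genes that work with or on the Hox clusters were then read from lists. The counts in these lists, and in the depot lists further below, stand beside the shares over all 15828 tested genes. These were 4.25% called in edgeR, 14.1% in DESeq2 and 10.4% in limma-voom. At an unadjusted p under 0.05 in edgeR the share was 23.7%, with 10.8% lower in NM1 KO. Among the 9 TALE cofactor genes, 0 passed (edgeR adjusted p under 0.05) and at an unadjusted p under 0.05 there were 1 higher and 1 lower, with median log2 fold change -0.24. DESeq2 and limma-voom called 0 of them. Pbx2, a DNA-binding partner of Hox proteins, had 60.6, 51.6 and 59.99 CPM in WT and 43.0, 51.1 and 46.0 CPM in NM1 KO (-0.30 ± 0.12, edgeR adjusted p = 0.182).

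Of the Polycomb genes, 0 of 11 PRC2 genes, which place the repressive H3K27 methyl mark, and 0 of 19 PRC1 genes, which read it and compact chromatin, passed in edgeR. At an unadjusted p under 0.05 there were 1 higher and 1 lower in PRC2 and 1 higher and 4 lower in PRC1. DESeq2 called 2 and 3 of them, and limma-voom 1 and 2. Their median log2 fold changes were 0.081 and -0.032. Cbx6, a PRC1 reader, had 110, 68.0 and 96.4 CPM in WT and 82.0, 88.1 and 78.6 CPM in NM1 KO, and Phc2, a PRC1 scaffold, 79.4, 82.6 and 83.6 against 69.0, 70.8 and 63.7 CPM. Cbx6 overlapped between the genotypes and Phc2 did not, and neither passed (edgeR adjusted p = 0.666 and 0.138).

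Of the 2 H3K27 demethylase genes 0 passed in edgeR, with 1 higher at an unadjusted p under 0.05 and 1 called by DESeq2 and by limma-voom. In the Trithorax and MLL list, whose products keep Hox genes active, 0 of 11 passed, with 1 higher and 3 lower at an unadjusted p under 0.05 and 2 called by DESeq2 and 2 by limma-voom (median -0.11). Kmt2a, the MLL methyltransferase, had 72.4, 54.6 and 70.9 CPM in WT and 102, 86.3 and 96.0 CPM in NM1 KO (0.52 ± 0.14, edgeR adjusted p = 0.0786), and Hcfc1, a cofactor, 149, 150 and 132 against 118, 150 and 121 CPM (-0.15 ± 0.13, edgeR adjusted p = 0.518). Kmt2a was higher in every NM1 KO library than in any WT library, and Hcfc1 overlapped. For CTCF and cohesin, which set the boundaries inside Hox clusters, 0 of 7 passed in edgeR, DESeq2 or limma-voom, with 1 lower at an unadjusted p under 0.05 (median 0.026). Of the genes that act upstream of Hox activation (the Cdx, Gdf11 and retinoic acid receptor genes) 4 of 7 were tested and 0 passed in edgeR, with 1 lower at an unadjusted p under 0.05 and 1 called by DESeq2 and by limma-voom.

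Neighbours of the clusters served as a reference for the region. Of 11 flanking genes 8 were tested and 0 passed in edgeR, DESeq2 or limma-voom, with 1 higher at an unadjusted p under 0.05 and a median log2 fold change of 0.15. Of 43 noncoding genes annotated within the clusters 12 were tested and 0 passed in edgeR, DESeq2 or limma-voom, with 2 lower at an unadjusted p under 0.05 and a median of -0.35. Hoxd3os1, antisense in the Hoxd cluster, had 7.36, 5.63 and 5.41 CPM in WT and 4.86, 6.81 and 4.85 CPM in NM1 KO. Hotairm1, a regulator of the 3′ Hoxa genes, had 1.77, 2.59 and 3.61 CPM in WT and 1.26, 1.62 and 1.97 CPM in NM1 KO. Both genes overlapped between the genotypes, and neither passed (edgeR adjusted p = 0.726 and 0.275).

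Markers of other depots place the Hox profile beside other positional genes. Of 7 genes known as marks of visceral fat or its mesothelial lining, 6 were tested and 1 passed in edgeR, DESeq2 and limma-voom alike. This was Wt1, a transcription factor of visceral mesothelium and its fat lineage, with 54.9, 67.1 and 70.7 CPM in WT and 31.9, 34.5 and 37.1 CPM in NM1 KO. It fell in NM1 KO without overlap (log2 fold change -0.90 ± 0.13, edgeR adjusted p = 0.0227), and the call was lost when any 1 library other than NM1 KO replicate 2 was left out. Wt1 is also one of the 5 mesothelium markers. Tcf21, Bnc1 and Gata6 had 7.92 to 44.2 CPM over all libraries with overlapping genotypes, and Gata4 stayed below 0.37 CPM.

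Among 7 genes known from subcutaneous or brown depots, 5 were tested and 0 passed in edgeR, with 2 higher at an unadjusted p under 0.05, 2 called by DESeq2 and 1 by limma-voom, and a median log2 fold change of 0.87. The median is the value of En1, which had 0.481 to 1.40 CPM. Zic1 was at or below 0.0401 CPM and Tbx15 at or below 0.255 CPM, while Sfrp2 and Ebf3 (16.0 to 23.1 CPM) were well detected. Sfrp2 had 51.8, 23.8 and 94.5 CPM in WT and 124, 138 and 115 CPM in NM1 KO. Its log2 fold change was 1.15 ± 0.43 (edgeR adjusted p = 0.170, DESeq2 adjusted p = 0.0448). Ebf3 had 0.016, and Shox2, at 0.182 to 0.959 CPM, went the other way (-1.22 ± 0.54, edgeR adjusted p = 0.224). Lhx8, a brown fat mark singled out after its values were seen, had 0.0370, 0 and 0.160 CPM in WT and 0.998, 2.62 and 0.729 CPM in NM1 KO (edgeR adjusted p = 0.0510). A separate list of brown adipocyte markers had 1 of 2 called higher in edgeR, beside 2.79% of all tested genes. These markers summed to 2.00 to 2.46 CPM in WT and 5.79 to 11.5 CPM in NM1 KO. Of 10 other positional homeobox and T-box genes 4 were tested and 0 passed in edgeR, DESeq2 or limma-voom, with 0 at an unadjusted p under 0.05, and of the 2 hindlimb genes in the list Pitx1 had 0 counts in each library while Tbx4 had 1.25 to 3.49 CPM in WT and 1.31 to 1.43 CPM in NM1 KO.

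**Figure D5:**
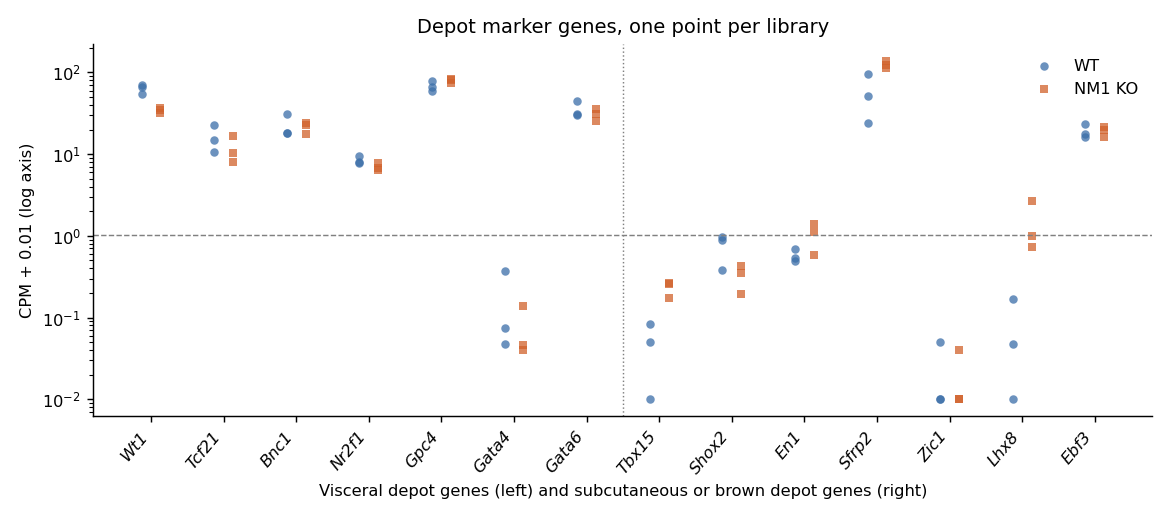
Level of the 7 visceral and the 7 subcutaneous or brown depot genes in each library, as CPM plus 0.01 on a log axis (blue circles WT, orange squares NM1 KO, dashed line 1 CPM). Of the visceral genes all but Gata4 lie above 1 CPM, and Wt1 is 54.9 to 70.7 CPM in WT and 31.9 to 37.1 CPM in NM1 KO; Tbx15 and Zic1 lie below 1 CPM in all libraries.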

How the data were processed

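Per the labels' protocols, libraries were made from total RNA of visceral fat with the NEBNext Ultra II RNA kit. Per the submitters' processing notes, the tools were HISAT2 2.0.4 and HTSeq, with Trimmomatic 0.36, SAMtools 0.1.19 and FastQC, on GRCm38 (mm10); the sources used here state neither annotation nor strand setting. The authors deposited raw counts per Ensembl gene for each library, of which 46091 identifiers of 46603 matched GENCODE M21 (unmatched ones held 0.0333% of counts). Genes passing filterByExpr were fitted with edgeR 4.0.16 (R 4.3.3, TMM, robust quasi-likelihood test, 2 genotypes, 6 libraries), with two-sided p adjusted by Benjamini-Hochberg over all 15828 tested genes at 0.05; the fit was tested on simulated data. DESeq2 1.42.0, limma 3.58.1 (voom with quality weights), other scalings and filters, a GC and length offset, a replicate block and leaving out each library were alternatives. CPM are TMM-scaled; TPM used the union of exons. Within each group no 2 libraries agreed within sampling noise (chi-square per degree of freedom at least 35.9).

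Library values were named for the Hox genes with the highest TPM of a cluster, those at the 5′ border and those with extreme fold changes, and from each list for called members or the 2 most abundant; Hoxb7, Hoxd3 and others outside this were added after their values were seen. Values of some single genes are not reported here, though counts and sums over the sets include them. The Hox set and all lists were chosen with earlier results of these data known.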

Additional observations from a re-analysis of the deposited data

How the results depend on the processing

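Counts of calls depended strongly on the tool and on single libraries. Over all genes, 673 were called in edgeR, 2239 in DESeq2, 1648 in limma-voom and 1 to 1654 when any 1 library was left out, and of the Hox genes 0, 2, 1 and 0 to 1. The replicate block gave 336 calls over all genes and 0 Hox genes. Deviations from the group mean correlated at -0.060, -0.035 and 0.19 between same-numbered libraries over 15828 genes. Between libraries of different number they correlated at -0.097 to 0.11. With 3 libraries per group, such small values cannot decide whether the numbers pair them. The Hox median log2 fold change was -0.40 with the block and -0.59 to -0.21 when any 1 library was left out. The Hoxc sum differed by -27.4 to 10.6 CPM when any 1 library was left out. With 1 CPM asked in all 6 libraries, 5 Hoxb genes were expressed; other thresholds tried and each left-out library kept the paralog range of every cluster.

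Signs turned under some setting in 7 of the Hox genes reported; the cause was not tested. With the GC and length offset the log2 fold changes were 0.049 for Hoxb5, 0.00027 for Hoxb7, 0.026 for Hoxc4 and -0.064 for Hoxc8, and with the replicate block added 0.058 for Hoxb5, 0.023 for Hoxc4 and -0.063 for Hoxc8. Limma-voom gave 0.0066 for Hoxb7 and -0.12 for Hoxc5. For Hoxc5, DESeq2 gave -0.0012, RLE size factors -0.00067, the filter at 1 CPM -0.0046, library totals alone -0.028, protein-coding genes only -0.013 and upper-quartile factors -0.030. Leaving out any 1 library gave ranges of -1.24 to 0.68 for Hoxa9, -0.15 to 0.080 for Hoxb5, -0.14 to 0.090 for Hoxb7, -0.31 to 0.18 for Hoxc4, -0.25 to 0.23 for Hoxc5, -0.38 to 0.026 for Hoxc6, -0.028 to 0.12 for Hoxc8 and -0.32 to 0.012 for Cbx6. Genes under about 1 CPM rest on few counts, which limits the precision of their values.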
